A study of Mus musculus with 12 samples.

Results

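Hes1 and 9 other genes of the Notch pathway (Hes6, Heyl, Hey1, Sox9, Notch1, Notch2, Jag1, Dll4 and Rbpj) were followed in 12 libraries of mouse liver RNA. Hes1 was chosen by its counts in the contrast reported here, which were higher in the ghrelin libraries than in the PBS libraries. The other genes were taken by name, for their place in the pathway, to ask whether receptors, ligands, the nuclear effector and further target genes differed along with it. All 10 were found among the 38087 genes counted, and 9 of them passed the filter on low counts that left 14170 genes for testing. Hey1 did not pass. They come from male C57BL/6j mice, 13 to 16 weeks old and kept germ-free, so that the treated and the control group alike lacked a microbiota. The labels do not say whether each library is a separate animal. The ghrelin group (n = 6 libraries) received 10 µg of rat ghrelin per mouse under the skin daily for 5 days, and the PBS group, the other 6 libraries, was given phosphate-buffered saline alone on that schedule. Injection and sampling are labelled zeitgeber time 2, in hours after lights on. Ghrelin is a stomach peptide that stimulates appetite and the release of growth hormone. Whole liver was sequenced, so for every gene below fewer cells of a type and less RNA per cell cannot be told apart.

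Notch receptors are cut by proteases when they meet a ligand of the Jagged or Delta-like families on a neighbouring cell. The freed intracellular part joins the DNA-binding protein RBPJ and coactivators of the Mastermind-like family, and the complex turns on target genes, of which those for the HES and HEY repressors are the best known. In liver the pathway is known for the formation of bile ducts through Jag1 and Notch2, with Sox9 as a marker of the biliary lineage, and for signalling between cells of the sinusoidal endothelium. Hes1 can also be induced by signals other than Notch, and its protein represses its own gene.

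The HES and HEY targets are related proteins, and the last 60 coding bases of 3 of them are shown. In HES proteins this end meets the corepressors whose genes are described further on. HES repressors end in a tetrapeptide that recruits corepressors of the Groucho (TLE) family, and capitals mark 4 codons that match it in frame, with free bases where the code is redundant. A variant form known from HEY proteins was searched as well. The sequences come from GENCODE M21 transcripts on GRCm38, 5′ to 3′ on the coding strand.
Hes1: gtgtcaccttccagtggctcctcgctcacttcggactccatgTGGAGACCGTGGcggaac
Hes6: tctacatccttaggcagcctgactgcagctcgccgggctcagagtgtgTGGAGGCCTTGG
Heyl: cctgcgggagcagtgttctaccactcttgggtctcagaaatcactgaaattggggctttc
The Hes1 end lies at chr16:30067366-30067425 on the plus strand, and its match stops 6 bases before the last coding base. That of Hes6 lies at chr1:91412061-91412120 on the minus strand and ends with the match itself. Heyl, at chr4:123246568-123246627 on the plus strand, held no match to either form in these bases, which says nothing of other HEY genes. The coding parts are 846 bases long in Hes1, 672 in Hes6 and 978 in Heyl.

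RBPJ binds a short core, TGGGAA, and the bases upstream of the members were searched for it. RefSeq promoters on GRCm38.p6 were matched for 6 of the 10 genes (Hes6, Notch1, Notch2, Jag1, Dll4 and Rbpj, with 8 entries in all), and the 250 bases before each start were read on both strands. Rbpj itself held the core, in windows inside the annotated gene and not at its start, chr5:53466152. Of its entries, the outer had 2 matches, 149 and 65 bases before its start, the latter as the reverse complement. The first 118 bases of that window, chr5:53590096-53590213 on the plus strand, are printed with the match in capitals. The other 132 bases belong to an exon of another Rbpj transcript in GENCODE M21 and are not shown.
Rbpj: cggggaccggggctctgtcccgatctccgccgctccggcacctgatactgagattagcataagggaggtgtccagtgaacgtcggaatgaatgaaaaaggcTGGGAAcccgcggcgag
Of all 32851 promoter entries, 21.6% held the core within the same length. No match was found in the windows of Hes6, Notch1, Notch2, Jag1 or Dll4, which says only that these letters are not there. The Hes6 window that ends at the annotated gene start, chr1:91414039-91414288 on the minus strand, is shown because Hes6 had the largest difference after Hes1.
Hes6: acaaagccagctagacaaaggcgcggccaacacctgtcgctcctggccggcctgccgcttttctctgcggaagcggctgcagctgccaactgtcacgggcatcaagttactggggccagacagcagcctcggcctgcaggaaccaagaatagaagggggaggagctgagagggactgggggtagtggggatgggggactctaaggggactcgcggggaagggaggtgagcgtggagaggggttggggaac
The N-box CACNAG, a site bound by HES proteins, was found in 36.7% of all entries and in those of Notch1, Notch2, Dll4 and the other entry of Hes6. No entry of the 6 genes held TTCNNNGAA, the palindrome bound by STAT5, which 7.02% of all entries held.

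Total counts ranged from 18746597 to 22302533 in the PBS libraries and from 15775059 to 21457627 in the ghrelin libraries. The values below are CPM, in which each count is divided by the size of its library after scaling with TMM factors, and fold changes are ghrelin over PBS. Over all genes, 15 of 14170, or 0.106%, passed the quasi-likelihood test of edgeR at an adjusted p under 0.05, 0.826% had groups that did not overlap, and 13.4% had an unadjusted p under 0.05. PBS 2, PBS 3 and PBS 4 had the highest values on the main axis of variation (16.9 to 31.2 on a first principal component with 20.8% of the variance), against -22.6 to 7.74 in the other libraries. Hepatocyte genes dominated the RNA, as fits the tissue label. Albumin (Alb) averaged 65445 ± 9520 CPM in the PBS and 57655 ± 6110 CPM in the ghrelin group (SD, n = 6 per group). For the urea cycle gene Cps1 the means were 10155 ± 434 and 8874 ± 594 CPM, and its groups did not overlap.

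Hes1 (ENSMUSG00000022528, chr16:30064384-30067796), a repressor that holds back differentiation in many tissues, was higher in all 6 ghrelin libraries than in any PBS library, where 0.826% of all genes had groups apart in either direction. In PBS the lowest library had 4.82, the median was 6.41 and the highest was 7.65 CPM. In ghrelin the lowest library had 8.24, the median was 10.1 and the highest was 12.7 CPM. The groups did not overlap on this scale, ghrelin 5 being the lowest treated library and PBS 1 the highest control. Means were 6.26 ± 1.05 and 10.2 ± 1.43 CPM (SD, n = 6 per group), a 1.63-fold difference (log2 fold change 0.71, SE 0.12). Because Hes1 was chosen for this contrast, these values are a description and carry no test. The raw counts, 109 to 151 in PBS and 133 to 264 in ghrelin, overlapped, since ghrelin 5 was among the shallower libraries. The spread was 16.8% of the mean in PBS and 14.03% in ghrelin, where counting error alone would give 8.75% and 7.25%. Leaving out any 1 library gave log2 fold changes from 0.64 to 0.77. Without PBS 2, PBS 3 and PBS 4 together, a choice made after seeing the data, it was 0.67 (SE 0.16).

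**Figure D1:**
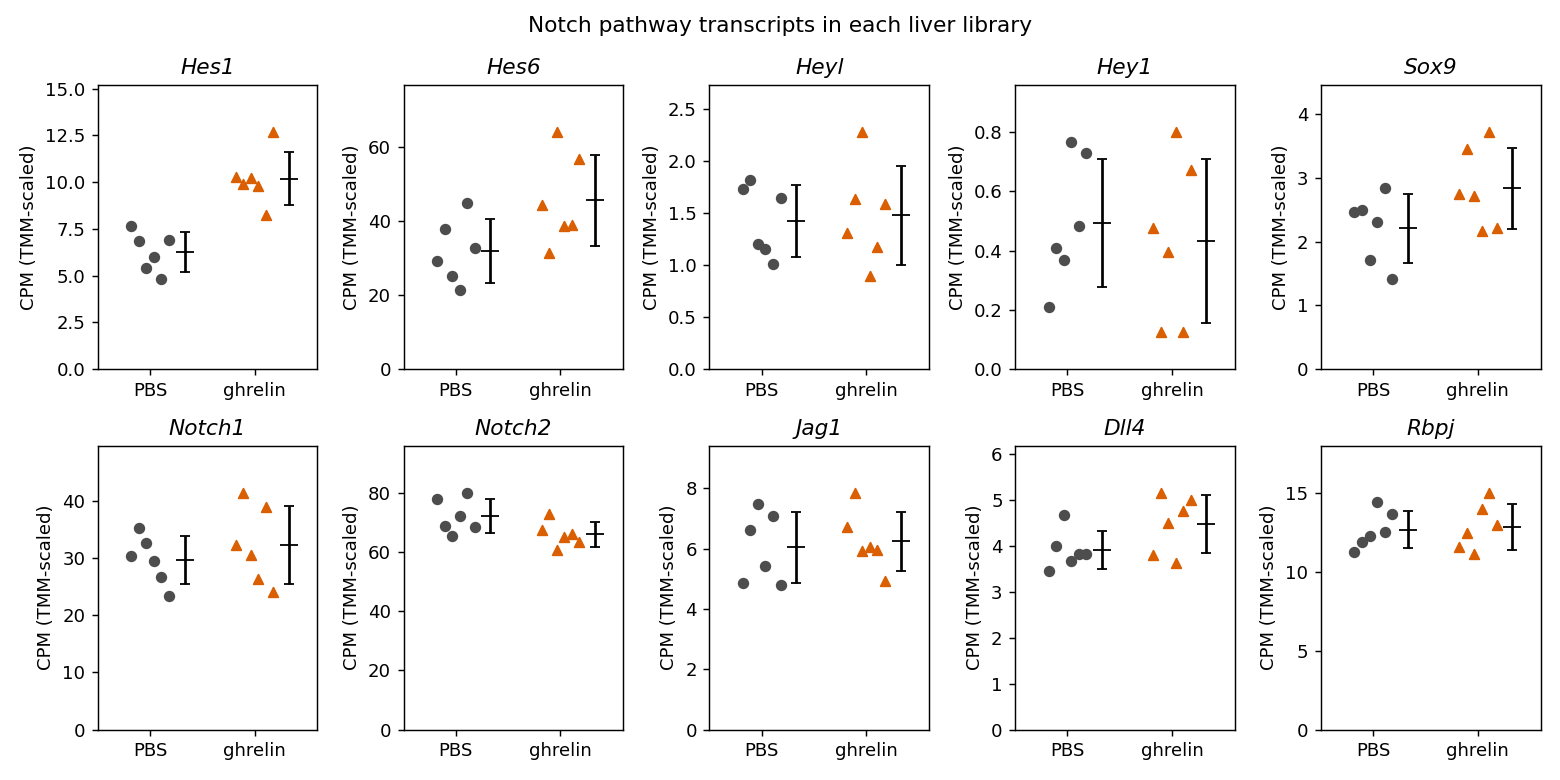
Each point is 1 library (circles PBS, triangles ghrelin, 6 each), with TMM-scaled CPM on a vertical axis from 0 and the mean ± SD beside the points. Hes1 separates the groups, from at most 7.65 CPM in PBS to at least 8.24 in ghrelin, while the groups of the other 9 genes overlap.

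None of the 8 other genes tested passed the threshold. The quasi-likelihood test of edgeR called 0 of 8, as did DESeq2 and limma-voom. Over all genes edgeR called 0.106% and DESeq2 called 210 genes. The number for limma-voom is not given here. At an unadjusted p under 0.05 there was 1 of 8, Hes6, against 13.4% of all genes. Log2 fold changes were above 0 for 7 of the 8 and below 0 for 1, and their median was 0.09. Over all tested genes 7087 were above 0 and 7083 below, with a median of 0.00.

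Among the other target genes Hes6 came closest to Hes1. Hes6 (ENSMUSG00000067071, chr1:91411483-91414038) encodes a HES protein that is known to oppose HES1 in neural and muscle precursors. PBS libraries ran from 21.4 through a median of 30.9 to 44.9 CPM, and ghrelin libraries from 31.5 through 41.7 to 64.1 CPM. Only ghrelin 3 and ghrelin 6 lay above the highest PBS library, PBS 5, and 3 PBS libraries lay below the lowest ghrelin library. Means were 31.9 ± 8.61 and 45.7 ± 12.3 CPM (SD, n = 6 per group), with a log2 fold change of 0.52 (SE 0.19, edgeR adjusted p = 0.265). The 95% interval of the fold ran from 1.09 to 1.89. The spread between libraries, 27.0% of the mean in PBS and 26.9% in ghrelin, was far above the 3.84% and 3.40% of counting error.

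Heyl (ENSMUSG00000032744, chr4:123233556-123249875), a HEY repressor found in vascular mural cells, did not separate the groups. Its values ran from 1.01 to 1.81 CPM in PBS (median 1.42) and from 0.894 to 2.28 CPM in ghrelin (median 1.45). The log2 fold change was 0.06 (SE 0.23, edgeR adjusted p = 0.945). With 19 to 46 reads per library, counting error alone would give a spread of 18.3% in PBS, where 24.1% was measured, and 19.1% in ghrelin, where 32.2% was measured. The interval of the fold ran from 0.742 to 1.46. Without ghrelin 3, the library with 2.28 CPM, the sign turned (log2 fold change -0.11), as it did without PBS 5 (-0.02).

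Hey1 (ENSMUSG00000040289, chr3:8663359-8667256), another HEY repressor and a classical Notch target of endothelium, was close to the limit of these libraries. It had 2 to 17 reads per library. Means were 0.494 ± 0.216 CPM in PBS and 0.432 ± 0.277 CPM in ghrelin (SD, n = 6 per group), a difference of -0.06 CPM with an exact two-sided permutation p of 0.647 over 924 assignments, whose smallest possible p is 0.00216. The groups overlapped over nearly their whole range.

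Sox9 (ENSMUSG00000000567, chr11:112782224-112787760), the transcription factor of bile duct cells, had 31 to 65 reads per library. It ran from 1.41 to 2.85 CPM in PBS (median 2.38) and from 2.16 to 3.72 CPM in ghrelin (median 2.73). Ghrelin 2 and ghrelin 5 lay above every PBS library, and PBS 3 and PBS 6 below every ghrelin library. The log2 fold change was 0.35 (SE 0.19, edgeR adjusted p = 0.450), with an interval of the fold from 0.961 to 1.69.

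Neither receptor passed the threshold of edgeR. Notch2 (ENSMUSG00000027878, chr3:98013527-98150361), the receptor of bile duct formation, had the most reads of the 10 genes, 1069 to 1825 per library. It ran from 65.5 to 80.0 CPM in PBS (median 70.5) and from 60.9 to 72.9 CPM in ghrelin (median 65.6). PBS 1 and PBS 5 lay above every ghrelin library, and 3 ghrelin libraries below every PBS library, so that what difference there was pointed down. The log2 fold change was -0.13 (SE 0.06, edgeR adjusted p = 0.386), and the interval of the fold, 0.834 to 1.002, was the narrowest of the 8. Notch1 (ENSMUSG00000026923, chr2:26457903-26516663), the receptor of endothelium and blood cells, ran from 23.5 to 35.2 CPM in PBS (median 29.9) and from 24.0 to 41.4 CPM in ghrelin (median 31.5). Its log2 fold change was 0.12 (SE 0.13, edgeR adjusted p = 0.728; interval of the fold 0.898 to 1.32), and leaving out 1 library moved it from 0.040 (ghrelin 2) to 0.20 (ghrelin 6).

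The ligands gave small differences within the spread of the libraries. Jag1 (ENSMUSG00000027276, chr2:137081456-137116644), the ligand of bile duct formation, had 4.79 to 7.48 CPM in PBS (median 6.02) and 4.94 to 7.85 CPM in ghrelin (median 6.01). Its medians were nearly equal, and the log2 fold change was 0.04 (SE 0.14, edgeR adjusted p = 0.936), with an interval of the fold from 0.838 to 1.26. The sign of this value turned without ghrelin 2, PBS 1 or PBS 6 (-0.032 to -0.0099). Dll4 (ENSMUSG00000027314, chr2:119325784-119335962), the Delta-like ligand of endothelium, had 3.46 to 4.67 CPM in PBS (median 3.82) and 3.62 to 5.15 CPM in ghrelin (median 4.64). Ghrelin 2, ghrelin 5 and ghrelin 6 lay above every PBS library and the other 3 within the PBS range. The log2 fold change was 0.19 (SE 0.12, edgeR adjusted p = 0.505), and the interval of the fold ran from 0.959 to 1.36.

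Rbpj (ENSMUSG00000039191, chr5:53466152-53657362), which encodes the DNA-binding partner of all Notch receptors, had the smallest difference of the 8. It had 11.3 to 14.4 CPM in PBS (median 12.4) and 11.1 to 14.98 CPM in ghrelin (median 12.7). The log2 fold change was 0.02 (SE 0.09, edgeR adjusted p = 0.949; interval of the fold 0.892 to 1.15). It turned sign without ghrelin 4, ghrelin 5 or PBS 1 (-0.024 to -0.0044). The intervals of Heyl, Notch1, Notch2, Jag1, Dll4 and Rbpj end below the 1.63-fold of Hes1, and those of Hes6 and Sox9 include it. That value belongs to a gene chosen for being higher here, and its own interval ran from 1.36 to 1.95. The interval of Heyl reached into this range and that of Dll4 ended near its lower limit, so the genes cannot be sorted by it. The difference between Hes1 and each of these genes was not tested.

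**Figure D2:**
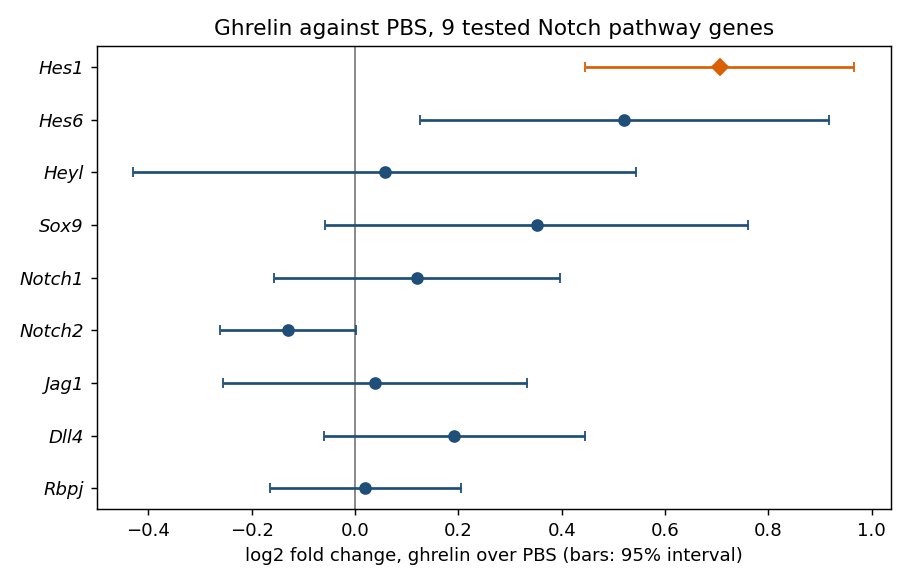
Log2 fold change of ghrelin over PBS (horizontal axis) for the 9 genes that passed the count filter, with bars for the 95% interval, from 6 libraries per group. Hes1 (diamond, chosen for this contrast) stands at 0.71, Hes6 at 0.52 and Sox9 at 0.35, and the other 6 lie between -0.13 and 0.19.

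Exons of Hes1, Hes6, Heyl, Hey1, Jag1, Rbpj and Sox9 overlap those of no other gene in GENCODE M21. Notch1 shares 1068 bases with 0610009E02Rik and 414 with Gm13568, and Dll4 shares 214 with Gm14207, all on the opposite strand. These 3 transcripts had 142, 45 and 25 reads over all libraries. Notch2 shares 541 bases with Gm42820 on its own strand. As the strand setting of the counting is not given in the sources used here, reads from these stretches cannot be assigned with certainty.

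Per length of exon the genes spanned a wide range of levels. On the RPKM scale, which divides CPM by kilobases of exon, Hes6 came highest, with 17.6 ± 4.76 in PBS and 25.3 ± 6.82 in ghrelin (SD, n = 6 per group), above every library of every other member. Its mean lay above 86.8% of the genes tested. Notch2 followed with 6.69 ± 0.528 and 6.12 ± 0.380 RPKM. Hes1 came next, with 3.07 ± 0.517 RPKM in PBS and 5.00 ± 0.702 RPKM in ghrelin, near the middle of the genes tested (above 55.3% of them). Its place between the 2 receptors differed by group. In PBS its range of 2.37 to 3.75 RPKM touched that of Notch1 (1.65 to 2.47) and lay below that of Notch2 (6.08 to 7.42). In ghrelin its range of 4.04 to 6.22 RPKM lay above that of Notch1 (1.69 to 2.91) and reached into that of Notch2 (5.64 to 6.76).

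Dll4, Jag1 and Rbpj could not be ordered, with overlapping ranges from 0.898 to 1.34 RPKM for Dll4, from 0.822 to 1.35 RPKM for Jag1 and from 0.873 to 1.18 RPKM for Rbpj. Sox9, Heyl and Hey1 came last, with means over all libraries of 0.609, 0.284 and 0.142 RPKM. The highest Sox9 library, at 0.898 RPKM, reached the lower end of Dll4, Jag1 and Rbpj. The ranges of Heyl and Hey1 overlapped, and Hey1 lay above only 2.53% of the genes tested.

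**Figure D3:**
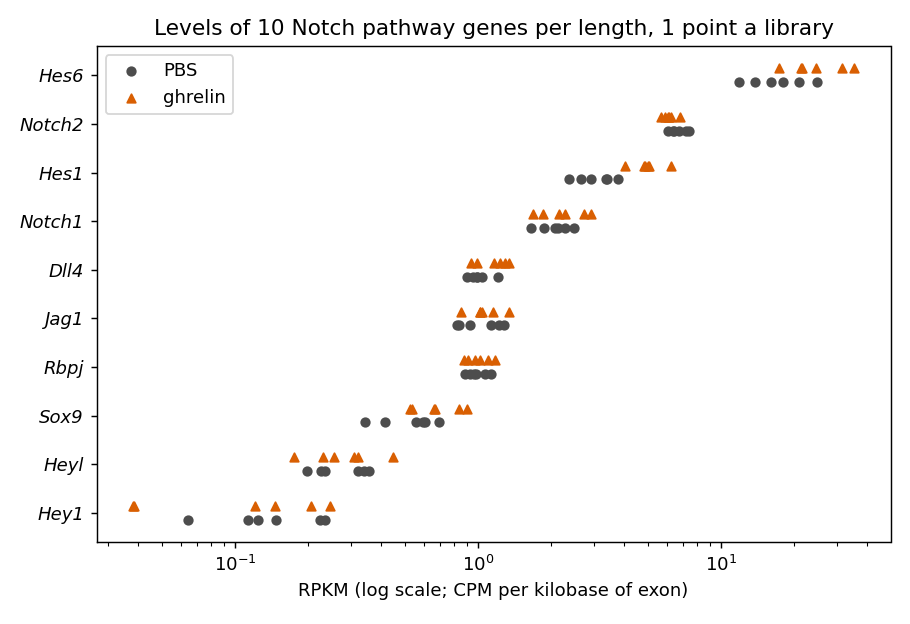
RPKM of the 10 genes on a log axis, 1 point a library (circles PBS, triangles ghrelin), ordered by the mean over all 12 libraries. Hes6 stands apart at the top, Dll4, Jag1 and Rbpj lie together, and the Hes1 points of the 2 groups are separate.

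The wider pathway was read from a list of 69 further genes, of which 68 were found and 57 tested. Neither edgeR nor DESeq2 nor limma-voom called any of the 57, against 0.106% of all genes by edgeR and 210 genes by DESeq2. At an unadjusted p under 0.05 there were 3 higher and 4 lower, where 6.44% and 6.94% of all genes were. The log2 fold changes were positive for 23 genes and negative for 34, from -0.62 to 0.39, with a median of -0.04 against 0.00 over all genes. The lowest was Dtx1, a Deltex ubiquitin ligase named after its value was seen (SE 0.39, edgeR adjusted p = 0.516). It had only 1 to 18 reads per library. With all 12 libraries no gene of the list reached the 0.71 of Hes1. Without PBS 2, PBS 3 and PBS 4, Bhlhe41 stood above it (0.999 against 0.67).

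Of the other receptors and ligands, Notch3 of mural cells averaged 2.37 ± 0.411 CPM without and 2.15 ± 0.558 CPM with ghrelin, a log2 fold change of -0.15 (SE 0.18). Notch4 of endothelium averaged 4.62 ± 0.679 and 4.83 ± 0.703 CPM (0.06, SE 0.13, and -0.012 without PBS 6 or -0.00072 without ghrelin 2). The ligand gene Dll1 averaged 2.88 ± 0.872 and 2.404 ± 0.6254 CPM (-0.27, SE 0.21). Without PBS 3, where Dll1 was highest, its value was -0.082. Jag2, Dll3, Dlk1 and Dlk2 did not pass the count filter, with 24, 34, 2 and 2 reads over all libraries.

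In the groups of genes that send and prepare the signal, values lay on either side of 0. Neurl3, a ubiquitin ligase related to those that drive ligand uptake, had the smallest unadjusted p of its group, from 3.01 ± 0.551 to 3.96 ± 0.415 CPM (log2 fold change 0.39, SE 0.14, edgeR adjusted p = 0.256). Poglut1, which adds glucose to the receptors, had 0.15 (SE 0.07), and 5 of the 6 genes of receptor maturation were positive. Of the 9 genes of receptor cleavage 7 were negative. Among them Adam10, the protease of the outer cut, had -0.15 (SE 0.07), and the γ-secretase subunits Aph1b and Aph1a had -0.41 (SE 0.21) and -0.14 (SE 0.08). Psen2, its catalytic subunit, had 0.21 (SE 0.12), and -0.056 without PBS 2, PBS 3 and PBS 4.

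The nuclear cofactors were mostly on the lower side without passing the test. For 6 of the 8 coactivators the difference was below 0 (median -0.10 on the log2 scale), among them Ep300, a histone acetyltransferase of the active complex (-0.17, SE 0.08). For 11 of the 15 corepressors it was below 0 too (median -0.05). Hdac2, a histone deacetylase, had 22.04 to 23.6 CPM in PBS and 17.5 to 20.8 CPM in ghrelin. It was the 1 gene of the 57 whose groups did not overlap, where 0.826% of all genes were without overlap. Its log2 fold change was -0.22 (SE 0.06, edgeR adjusted p = 0.160). Tle1, a Groucho corepressor recruited by HES proteins, had -0.24 (SE 0.09). Of 10 genes of receptor turnover and inhibition 5 were positive, with Dtx4, a Deltex ubiquitin ligase, at 0.39 (SE 0.15) and Numb, which directs the receptor to degradation, at 0.11 (SE 0.07).

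**Figure D4:**
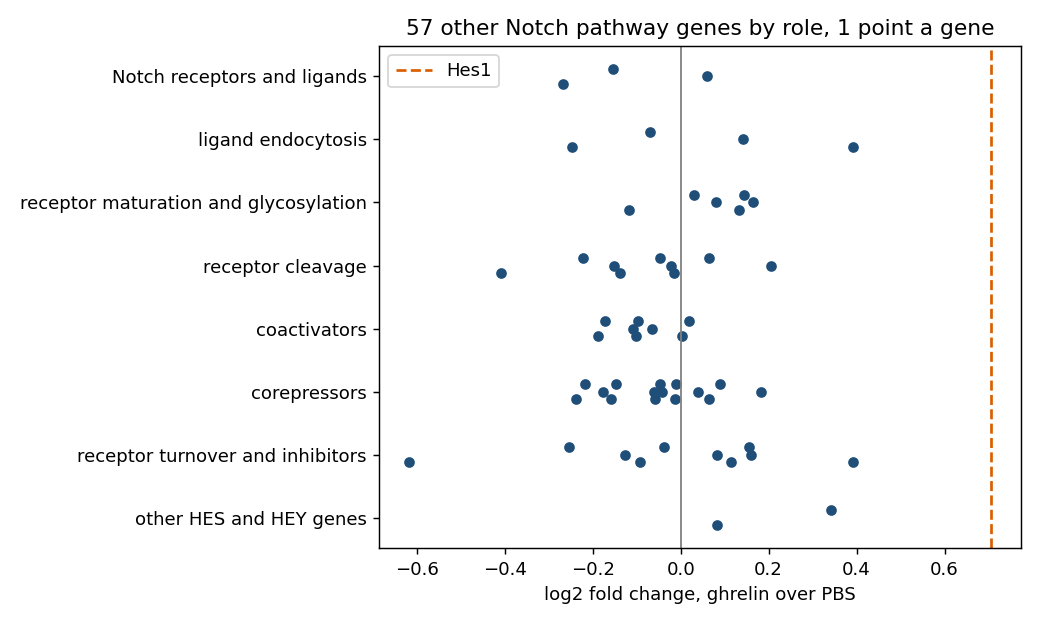
Log2 fold change of ghrelin over PBS for 57 further Notch pathway genes, 1 point a gene, in rows by role, from 6 libraries per group. The dashed line marks the 0.71 of Hes1, and all points lie between -0.62 and 0.39.

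Other genes of the HES and HEY family were low or without reads. Hes2, Hes3, Hes5 and Helt had 0 reads in every library, Hes7 had 11 and Hey2 had 55 over all libraries. The related repressors Bhlhe40 and Bhlhe41, which act in the circadian clock, passed the filter. Bhlhe40 averaged 98.4 ± 22.7 CPM without and 104 ± 7.47 CPM with ghrelin, a log2 fold change of 0.08 (SE 0.12). Bhlhe41 averaged 2.53 ± 1.15 and 3.17 ± 1.40 CPM (0.34, SE 0.33). Neither passed the test, and each value moved by over 1.5 times with single libraries. With 1 left out, Bhlhe40 ran from 0.023 to 0.18 and Bhlhe41 from 0.19 to 0.57. Without PBS 2, PBS 3 and PBS 4 they were 0.41 (edgeR adjusted p = 0.0757) and 0.999 (edgeR adjusted p = 0.425).

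Of 8 genes known as targets of repression by HES1, 3 were expressed enough to be tested, with log2 fold changes below 0 and none past the threshold of edgeR, where 2 of 3 had an unadjusted p under 0.05, as 6.94% of all genes did on the lower side. Pparg, a nuclear receptor that promotes fat storage, had 2.27 to 7.48 CPM in PBS (median 5.09) and 1.85 to 3.20 CPM in ghrelin (median 2.99). The 6 ghrelin libraries lay close together, and the PBS libraries were spread more widely. In PBS 5 of 6 libraries lay above every ghrelin library, and 1 ghrelin library lay below every PBS library, so the groups overlapped. The log2 fold change was -0.79 (SE 0.23, edgeR adjusted p = 0.191). The adjusted p was 0.0474 by DESeq2, which called 210 genes in all against 15 by edgeR. It was 0.0299 by edgeR without PBS 2, PBS 3 and PBS 4, where the log2 fold change was -1.13. That omission was chosen after seeing the data, so its p is given as a description only. Over all alternatives the adjusted p ran from 0.0299 to 0.309. The cell cycle inhibitors Cdkn1b and Cdkn1c had -0.15 (SE 0.07) and -0.17 (SE 0.25), the latter -0.025 without ghrelin 6. Atoh1, Neurog2, Neurog3 and Ptf1a, which are targets in brain, gut or pancreas, had 0 to 2 reads over all libraries.

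The summed levels of cell type markers overlapped between the groups for each of 6 lists. That of 8 hepatocyte markers was 80652 to 112961 CPM in PBS and 75778 to 92050 CPM in ghrelin, most of it from Alb. Of these 8, 4 had a log2 fold change above 0 and 4 below. Tat had -0.63 (SE 0.14, edgeR adjusted p = 0.115), with 5 of 6 ghrelin libraries below every PBS library. The summed level of 10 endothelial markers was 491 to 548 CPM in PBS and 504 to 543 CPM in ghrelin, with Stab2 at 151 ± 7.77 and 147 ± 3.99 CPM and Kdr at 86.5 ± 6.19 and 93.6 ± 6.26 CPM. That of 10 cholangiocyte markers was 42.0 to 57.3 CPM in PBS and 44.0 to 58.0 CPM in ghrelin, with Spp1 at 22.1 ± 3.84 and 23.1 ± 3.10 CPM and Pkhd1 at 18.1 ± 2.36 and 16.6 ± 2.24 CPM. The defining duct markers Krt19 and Epcam were below 1 CPM on average in either group. For 10 stellate and mural markers it was 418 to 468 CPM and 408 to 470 CPM, with Reln at 182 ± 7.88 and 182 ± 19.4 CPM and Dcn at 141 ± 14.8 and 122 ± 11.5 CPM. Of these 10, 6 had a log2 fold change above 0. Lrat, the retinol-storing enzyme of stellate cells, averaged 23.3 ± 9.34 and 37.4 ± 12.2 CPM, a difference near that of Hes1 (log2 fold change 0.69, SE 0.27, edgeR adjusted p = 0.291). For 8 Kupffer cell markers it was 192 to 358 CPM and 251 to 351 CPM, with Clec4f at 75.8 ± 14.3 and 75.9 ± 4.68 CPM and Cd5l at 71.6 ± 18.2 and 64.9 ± 10.9 CPM. For 8 lymphocyte and neutrophil markers it was 13.3 to 23.1 CPM and 13.4 to 21.1 CPM, mostly from Ptprc at 13.2 ± 2.48 and 13.4 ± 2.86 CPM and S100a9 at 3.09 ± 1.24 and 1.59 ± 0.904 CPM. The neutrophil genes S100a9 and S100a8 had log2 fold changes of -0.99 (SE 0.37, edgeR adjusted p = 0.275) and -1.44 (SE 0.36, edgeR adjusted p = 0.145). S100a8 averaged 1.98 ± 0.825 and 0.743 ± 0.416 CPM, with 5 of 6 ghrelin libraries below every PBS library. No list had a marker called by edgeR or had groups apart in its sum, and no listed marker was at 0 in all libraries. Their part in the values of Hes1 was not tested.

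Within the groups, Hes1 did not vary with the other genes beyond what the correction for 8 relations allows. For each gene, log2 CPM was centred on its group mean, so that the difference between groups that chose Hes1 is removed, and the 12 deviations were compared. Heyl had the highest positive value (Pearson's r = 0.62, permutation p = 0.0355, adjusted 0.195; Spearman's rho = 0.69, permutation p = 0.0269, adjusted 0.215). Jag1 had the lowest (Pearson's r = -0.63, permutation p = 0.0488, adjusted 0.195; Spearman's rho = -0.59, permutation p = 0.0635, adjusted 0.254). Without PBS 5 and ghrelin 6, the 2 libraries farthest from the median of Hes1, r was 0.56 for Heyl and -0.39 for Jag1. For Hes6, the gene with the next difference after Hes1 between groups, r was 0.15 (permutation p = 0.669, adjusted 0.669) and rho was 0.28 (permutation p = 0.414, adjusted 0.552), and r was 0.47 without the same 2 libraries. The other 5 had r from -0.40 for Sox9 to -0.14 for Dll4. Without the same 2 libraries r was -0.59 for Rbpj, -0.54 for Dll4, -0.30 for Notch1, -0.02 for Sox9 and 0.38 for Notch2, so that those of Dll4, Sox9 and Notch2 in particular depend on these libraries. Within the groups taken apart, r for Heyl was 0.93 over the 6 PBS and 0.36 over the 6 ghrelin libraries, and for Jag1 it was -0.75 and -0.43. The deviations of all genes share their library's depth and composition.

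**Figure D5:**
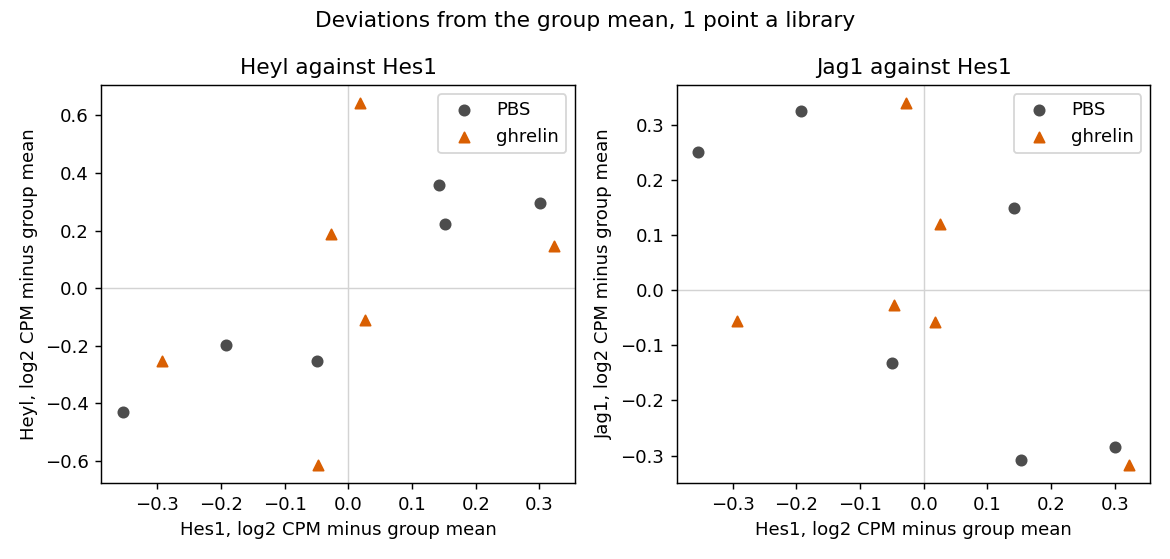
Deviation of log2 CPM from the group mean for Heyl (left) and Jag1 (right) against that of Hes1, 1 point a library (circles PBS, triangles ghrelin, 12 in all). Heyl runs upward with Hes1 (r = 0.62, with 0.93 in PBS and 0.36 in ghrelin) and Jag1 downward (r = -0.63), and neither passed once adjusted over 8 genes.

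By the same measure, 11351 named genes with a mean of at least 1 CPM were ranked by their likeness to Hes1. The highest r were those of Ccdc104 (0.89), Zfp846 (0.88), Stard3nl (0.88) and Ccdc166 (0.86), whose log2 fold changes between groups were 0.01, 0.10, 0.05 and 0.22. The lowest were those of the small nucleolar RNA SNORD20 (-0.95), of Vim, which encodes the filament protein vimentin (-0.88), of Mpi, a mannose phosphate isomerase (-0.88), and of Znfx1 (-0.87). Heyl ranked 208 and Jag1 ranked 11131 among them. These are the extremes of many genes over 12 libraries and are given as a description.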

How the data were processed

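Per the labels' protocols, total RNA of liver was depleted of ribosomal RNA, made into stranded libraries and sequenced in pairs of reads. The authors deposited unnormalised exon counts for every gene. STAR 2.4.0i and the build mm10 are named by the submitters' processing notes. How reads were counted (tool, annotation, strand, multiple matches) is not given in the sources used here. Titles give each library's number and, with the treatment label, its group. No label says that each library is a separate animal, so p-values speak for the spread among the libraries alone, which may be technical. No 2 libraries of a group were alike within sampling noise (chi-square per degree of freedom 11.7 to 48.6). Total counts were 15775059 to 22302533 per library.

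The count filter was filterByExpr (at least 10 reads in enough libraries and 15 in all) from edgeR 4.0.16. Counts were scaled with TMM, and 6 ghrelin libraries were compared with 6 PBS libraries by the two-sided quasi-likelihood F test in R 4.3.3, adjusted by Benjamini-Hochberg over all 14170 genes. Standard errors were taken from the F statistic, and intervals are 95%. CPM use the TMM scale, RPKM divide them by the union of exons in GENCODE M21, and log2 CPM use a prior count of 2. Covariation was tested by 100000 permutations of libraries within groups. Alternatives included DESeq2 1.42.0 and limma 3.58.1. The test was checked on simulated data of 14170 genes, with 50 genes changed at each size. It called 60% of those with a log2 fold change of 0.5 and 88% of those with 1, with 7 false calls. With nothing changed it made 0 calls. Changes smaller than 0.5 were not simulated. All sizes were changed in the same simulated data and genes were drawn independently, so these shares may be higher than in the libraries themselves. There edgeR called 15 genes, and Hes6, at 0.52, was not among them. Members, lists and the naming rule were chosen with earlier results of these data known. The rule names all 10 members and, of the other pathway genes, every called gene, the 12 with the smallest unadjusted p, and the measured receptors, ligands and HES or HEY relatives. It adds the measured targets of HES1 repression, the 2 highest markers of each cell type, and the 4 genes most and 4 least like Hes1. Krt19, Epcam, Lrat, S100a8, Tat and Dtx1 were named after their values were seen. Of the 69 further pathway genes, 1 was not matched. Some items that the rule names are not reported here.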

Additional observations from a re-analysis of the deposited data

Results flagged for a closer look

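In 60 groups of 6 libraries, the PBS and the ghrelin values of 30 named genes, 3 had an end library that stood far from the others, by a gap that, as a share of the group's range, exceeded Dixon's 95% critical value. Chance gives this in about 1 in 20 groups. Dll1 was 4.57 CPM in PBS 3, where the next library had 2.92 CPM. Poglut1 was 10.6 CPM in PBS 1, where the next had 12.2 CPM. Bhlhe40 was 89.7 CPM in ghrelin 6, where the next had 104.1 CPM. No group of Hes1 or of the 9 other members had such a library.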

How the results depend on the processing

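Hes1 stayed higher with ghrelin in all 23 alternatives (log2 fold change 0.64 to 0.77). In the same 23, 0 of the other members and 0 of the further pathway genes were called. Of 644 alternative values of 28 named genes, 631 kept sign and call. With 1 library left out the sign turned for Heyl (log2 fold change -0.11 to 0.18), Jag1 (-0.032 to 0.11), Notch4 (-0.012 to 0.11) and Rbpj (-0.024 to 0.062), and Psen2 was -0.056 without PBS 2, PBS 3 and PBS 4. Leaving out those 3 also moved Neurl3 to 0.23, Dtx4 to 0.19, Numb to 0.061, Ep300 to -0.050, Tle1 to -0.42, Notch1 to 0.26, Jag1 to 0.15, Notch3 to -0.24 and Dll1 to -0.10. Hes6, at 0.52, ran from 0.36 to 0.53 over that choice and the alternatives that kept all libraries. With 1 library left out it ran from 0.40 to 0.65. The number of targets of HES1 repression called, 0 by edgeR, was 1 by DESeq2 and 1 without those 3 libraries, in each case Pparg. Leaving out those 3 was a choice made after seeing the data. Over that choice and the other alternatives that kept all libraries, all genes called ran from 9 to 210. The number for that choice alone is not given here. The number of all genes called, 15, was 210 by DESeq2, 63 without a count filter and 9 with robust estimation. It ran from 0 to 32 with 1 library left out: omitting ghrelin 3 gave 0 in edgeR (where 1536 had an unadjusted p under 0.05), ghrelin 1 also 0 (1675), ghrelin 6 gave 6, ghrelin 2 gave 9, PBS 3 gave 5, PBS 6 gave 23, PBS 5 gave 24 and ghrelin 4 gave 32. With the replicate number as a block it was 58, and the Hes1 value was 0.71. The numbers of the titles did not pair the libraries. Libraries with the same number deviated together with r from -0.08 to 0.27, over 0.1 for 3 of 6 numbers, and 1 of 6 PBS libraries correlated best with its own number. Hey1, with 2 to 17 reads, is limited by depth, and its difference ran from -0.14 to -5.1e-04 CPM with 1 library left out. The cause of these changes was not tested.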
